A study of Arabidopsis thaliana with 5 samples.

Results

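NF-Y is a transcription factor assembled from 3 kinds of subunit, and the genes described here are 10 of the Arabidopsis genes that encode them. They were taken by gene ID from the deposited count table: LEC1 (AT1G21970), L1L (AT5G47670), NF-YB2 (AT5G47640), NF-YB3 (AT4G14540), NF-YA1 (AT5G12840), NF-YA5 (AT1G54160), NF-YA9 (AT3G20910), NF-YC3 (AT1G54830), NF-YC4 (AT5G63470) and NF-YC9 (AT1G08970). These are 10 of the 37336 genes in the table, and the other 26 genes of the NF-Y family were read beside them. All 10 had enough counts to be tested, among 19003 tested genes. The libraries were made from RNA of whole developing seeds of Arabidopsis thaliana, 2 from the wild type Col-0 and 3 from the mutant dof4.1-3, a T-DNA line in the Col-0 background whose insertion lies in an exon of DOF4.1, a Dof-type transcription factor gene. Both genotypes were grown side by side in a greenhouse, and the labels put the seeds at 9 days after pollination. The study's methods also give 9 days, while its results give 10 for the same comparison. Only 1 mutant line was sequenced, no complemented line was among the libraries, and the sources used here do not say whether replicates came from separate plants, so p-values cover the variation among these 5 libraries only, and that may be technical.

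In an NF-Y complex, an NF-YB and an NF-YC subunit pair through histone-fold domains, and an NF-YA subunit joins the pair and reads the CCAAT box in a promoter. LEC1 and its closest relative L1L are the NF-YB subunits known mainly from developing seeds. LEC1 is a master regulator of embryogenesis and seed maturation, known for the loss of embryo identity and of drying tolerance in its mutant, and L1L is needed for normal embryo development. NF-YB2 and NF-YB3 are best known from flowering, where they act with NF-YC3, NF-YC4, NF-YC9 and the CONSTANS protein. NF-YA1, NF-YA5 and NF-YA9 are known for embryo-like growth when overexpressed, and NF-YA5 also for drought responses.

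The 4 NF-YB genes are similar in the part of their coding sequence that encodes the histone fold. The sequences below, from the RefSeq TAIR10.1 assembly, show how far LEC1 resembles the other 3 genes whose counts are compared with its own. Each is a stretch of 90 coding bases, written 5′ to 3′, chosen as the stretch of LEC1 most like L1L with its best match in NF-YB2 and NF-YB3, and capitals mark bases that differ from LEC1.
LEC1: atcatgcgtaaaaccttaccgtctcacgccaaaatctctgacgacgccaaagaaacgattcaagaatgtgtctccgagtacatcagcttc
L1L: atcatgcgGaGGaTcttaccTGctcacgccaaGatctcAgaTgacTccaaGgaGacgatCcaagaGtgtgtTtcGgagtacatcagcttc
NF-YB2: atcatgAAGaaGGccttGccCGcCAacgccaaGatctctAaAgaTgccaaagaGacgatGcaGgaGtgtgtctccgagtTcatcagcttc
NF-YB3: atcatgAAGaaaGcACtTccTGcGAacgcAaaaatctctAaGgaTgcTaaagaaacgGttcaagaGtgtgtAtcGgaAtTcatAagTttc
L1L matched LEC1 at 74 of the 90 bases (82.2%), NF-YB2 at 71 (78.9%) and NF-YB3 at 66 (73.3%). The stretches lie at chr1:7728164-7728253 on the minus strand for LEC1, chr5:19315481-19315570 on the plus strand for L1L, chr5:19309531-19309620 on the plus strand for NF-YB2 and chr4:8344762-8344851 on the plus strand for NF-YB3. An aspartate in this domain is the known mark of the LEC1 type of NF-YB subunit, where other NF-YB proteins carry a lysine. In the printed stretch its codon covers bases 40 to 42, counted from 1 at the 5′ end: L1L differed from LEC1 there by C42T, which keeps aspartate, while NF-YB2 differed by G40A and C42A and NF-YB3 by G40A and C42G, both giving lysine.

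The similarity did not reach the length of a read. None of the stretches of 50 bases in the transcripts of the 10 genes occurred at another place in the genome or in another of the 10 genes, and the longest run that LEC1 shared with another of them was 15 bases, with L1L. The longest run shared by any pair was 38 bases, between NF-YC3 and NF-YC4. Reads were counted without strand, so reads in bases shared with an overlapping neighbour cannot be assigned to either gene. Such reads may be among the ambiguous ones, which were left out, so levels of overlapped genes may be understated. LEC1 (chr1:7727577-7729649, minus strand, 2 exons), NF-YB3, NF-YA1 and NF-YC9 had no overlapping gene in the annotation. NF-YC4 shared 339 exon bases with AT5G63480 on the opposite strand. NF-YB2 (chr5:19309227-19310272, plus strand, 1 exon) shared 35.1% of its exon bases with the long noncoding RNA gene AT5G07015. That RNA gene had 0 counts in each of the 5 libraries, which does not show that it was silent, since shared reads may be ambiguous. L1L (chr5:19314778-19316169, plus strand, 2 exons) shared 116 exon bases with AT5G47660 and 124 with AT5G47680, whose own counts were 56 to 135 and 232 to 399, against at least 7558 for L1L. NF-YB2 and L1L lie 4505 bases apart on chromosome 5, with AT5G47650, which overlaps NF-YB2, and AT5G47660, which overlaps L1L, reaching into that interval.

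The libraries held 16500028 and 17049283 gene counts in the wild type against 20101091 to 21722055 in the mutant. DOF4.1 itself (AT4G00940) had 1 and 14 counts in wild-type replicates 1 and 2 against 3, 4 and 4 in mutant replicates 1, 2 and 3, too few to check the labels with. The 50 most abundant genes took 28.2% and 21.1% of the counts in the wild type against 28.6%, 41.6% and 34.6% in the mutant, and TMM scaling, which sets library sizes by the bulk of genes, was used to allow for this. Storage protein genes, the products of seed filling, summed to 99940 and 51130 CPM (counts scaled to the size of the library) in the wild type against 128600, 332400 and 207700 in the mutant. Of the embryo markers, 11 of 12 were detected well enough to be tested, and of the seed coat markers 11 of 13. Of the endosperm markers 5 of 10 were tested, and the early endosperm genes PHE1, IKU2 and MINI3 had at most 3 counts in any library.

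LEC1 transcripts were lower in the mutant seeds. LEC1 had 916 and 946 counts in the wild type against 418, 288 and 441 in the mutant. After TMM scaling these were 56.5 and 46.4 CPM in wild-type replicates 1 and 2 against 19.0, 15.6 and 22.9 CPM in mutant replicates 1, 2 and 3. The groups did not overlap, and the highest dof4.1-3 library stood below both Col-0 libraries. The mean was 51.4 ± 7.17 CPM (SD, n = 2) in the wild type against 19.2 ± 3.64 CPM (SD, n = 3) in the mutant, 2.68-fold lower. DESeq2 called LEC1 lower, with an adjusted p of 7.84e-06. By edgeR's quasi-likelihood test with Benjamini-Hochberg adjustment over all tested genes, the log2 fold change of LEC1 was -1.42 (standard error, SE, 0.21, adjusted p = 0.0209). The call was not kept without either Col-0 library or once a trend over transcript length was removed: the log2 fold change was then -1.27 without Col-0 replicate 1 (adjusted p = 0.325 by edgeR), -1.56 without Col-0 replicate 2 (0.240) and -1.18 without the trend (0.0616). Without Col-0 replicate 1 or 2, edgeR called only 2 or 0 genes lower in the whole table. In RNA of whole seeds, fewer cells of a type and less RNA per cell cannot be told apart. In the mutant libraries LEC1 stood at 0.304 to 0.446 of the wild-type mean. In the same libraries summed seed coat markers stood at 0.618 to 0.664, silique wall markers at 0.500 to 0.573 and embryo markers at 1.22 to 1.60. Whether makeup had a part was not tested.

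**Figure D1:**
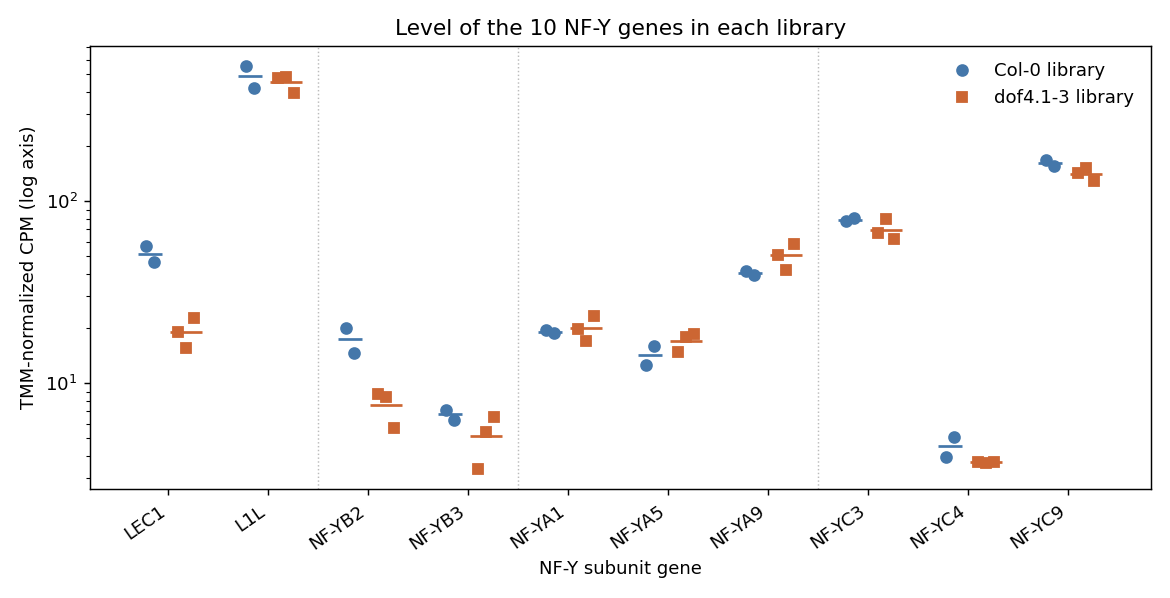
TMM-normalized CPM on a log axis for each of the 10 genes, with Col-0 libraries as blue circles, dof4.1-3 libraries as orange squares and group means as short lines. LEC1 and NF-YB2 sit lower in each of the dof4.1-3 libraries, at most 22.9 CPM against at least 46.4 and at most 8.75 against at least 14.7, while the groups of L1L lie across each other.

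The LEC1 transcript is short, 968 bases in its longest annotated form, and short genes as a whole read lower in the mutant. The median log2 fold change was -0.31 in the shortest 10% of tested genes and 0.29 in the longest 10%. The value of -1.18 for LEC1 given above is what was left with that trend removed.

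L1L, the other LEC1-type gene, was far more abundant, and its difference did not pass the test. Its counts were 8954 and 8517 in the wild type against 10433, 8858 and 7558 in the mutant. On the TMM scale these were 552 and 417 CPM in the wild type against 475, 481 and 393 CPM in the mutant. The groups overlapped, and the Col-0 libraries lay further apart than the dof4.1-3 libraries. The log2 fold change was -0.11 (SE 0.23, adjusted p = 0.856 by edgeR), with an SE that leaves room for a moderate change either way. Its sign turned without Col-0 replicate 1 (0.11) and with the length trend removed (0.06), and it passed the threshold in none of the settings tried.

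Because L1L and LEC1 were measured in the same libraries, their ratio does not depend on the scaling between libraries. Per kilobase of transcript, LEC1 stood at 12.5% and 13.6% of L1L in the wild type and at 4.89%, 3.97% and 7.12% in the mutant. On the log2 scale the ratio was lower by 1.33 in the mutant (mean -4.27 ± 0.43, SD, n = 3) than in Col-0 (-2.94 ± 0.08, SD, n = 2), and the groups did not overlap. The exact two-sided permutation test over the 5 libraries gave p = 0.1, the smallest p that 2 libraries against 3 allow. Leaving out each library in turn gave differences of -1.56 to -1.14.

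**Figure D2:**
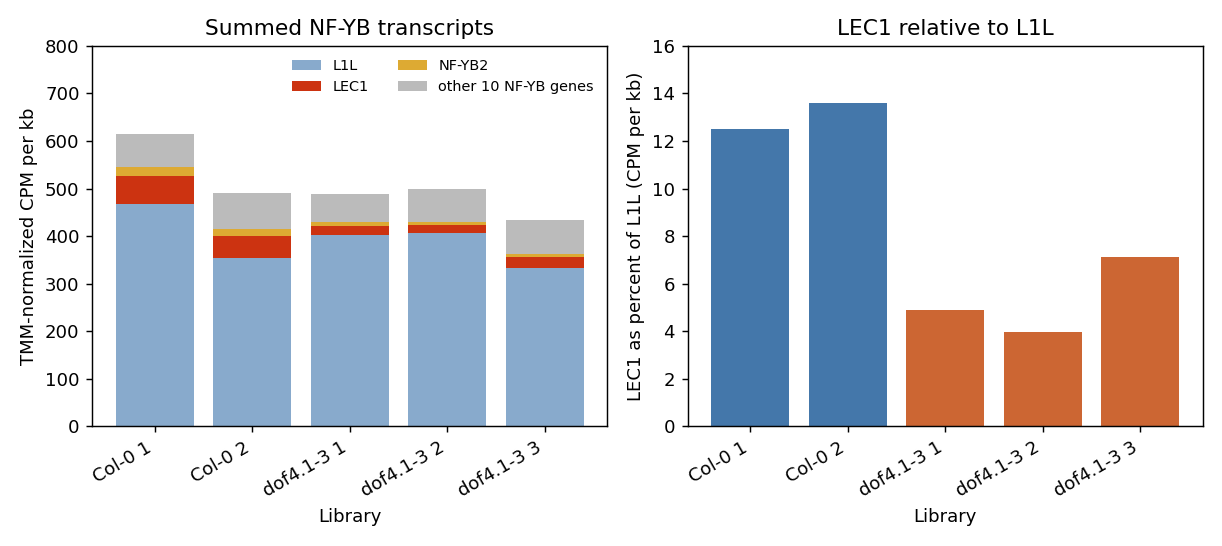
Left, TMM-normalized CPM per kilobase of transcript summed over the NF-YB genes in each library, split into L1L, LEC1, NF-YB2 and the other 10 genes. Right, LEC1 as a percent of L1L per kilobase in the same libraries, 12.5% and 13.6% in the wild type against 3.97% to 7.12% in the mutant.

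L1L made up most of the NF-YB transcripts of these seeds in each library. Over the 13 NF-YB genes, per kilobase, L1L took 75.9% and 72.0% in the wild type against 82.3%, 81.6% and 76.5% in the mutant. LEC1 took 9.49% and 9.77% in the wild type against 4.02%, 3.24% and 5.45% in the mutant. LEC1 and L1L together took 85.4% and 81.8% in the wild type against 86.3%, 84.8% and 81.9% in the mutant, so their joint share overlapped between genotypes while LEC1's did not.

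NF-YB2 also had separate groups. It had 327 and 300 counts in the wild type against 192, 154 and 109 in the mutant. On the TMM scale it stood at 20.2 and 14.7 CPM in Col-0 and at 8.75, 8.35 and 5.66 CPM in the mutant. Each dof4.1-3 library was below both Col-0 libraries, and the means of 17.4 ± 3.87 CPM (SD, n = 2) and 7.59 ± 1.68 CPM (SD, n = 3) differed 2.29-fold. The log2 fold change was -1.20 (SE 0.25), and the adjusted p of 0.0610 by edgeR missed the threshold of 0.05. DESeq2, the tool of the study's own methods, put it past the threshold with an adjusted p of 0.00534, as did edgeR with no filter on low counts (0.00438), without dof4.1-3 replicate 1 (0.0317) and without dof4.1-3 replicate 2 (0.0207). Limma-voom gave an adjusted p of 0.0658.

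NF-YB3, the gene most like NF-YB2 in role, was low in each library. It had 116 and 129 counts in the wild type against 74, 100 and 126 in the mutant, or 7.15 and 6.32 CPM and 3.37, 5.43 and 6.55 CPM. The groups overlapped, since dof4.1-3 replicate 3 lay between the Col-0 libraries. The log2 fold change was -0.40 (SE 0.31, adjusted p = 0.556 by edgeR).

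**Figure D3:**
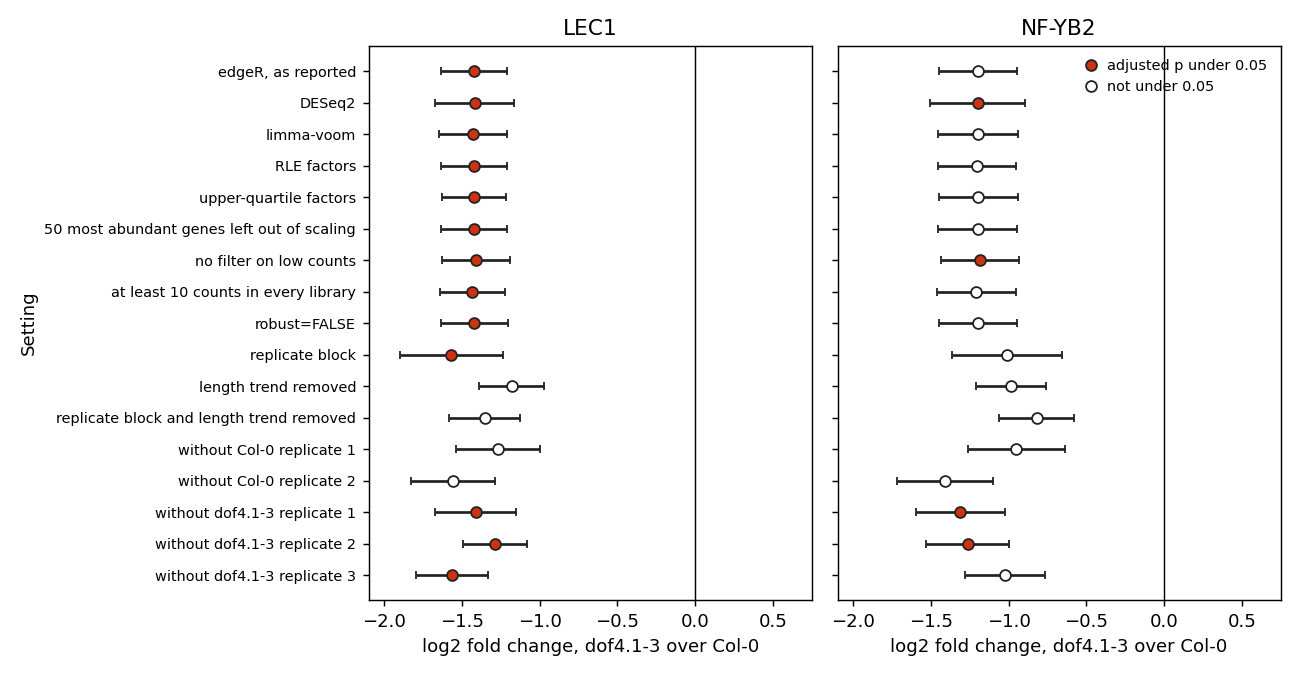
Log2 fold change of LEC1 (left) and NF-YB2 (right), dof4.1-3 over Col-0, under each setting, with bars of 1 standard error and filled points for an adjusted p under 0.05. LEC1 stays between -1.57 and -1.18 and loses the call in 4 of the 16 other settings, and NF-YB2 gains it in 4 of 16.

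The promoters of these 2 genes are shown because LEC1 was called lower in the mutant of a Dof factor by edgeR and NF-YB2 by DESeq2, and Dof proteins are known to bind the letters AAAG. The sequences are the 250 bases before the annotated start of each gene in TAIR10.1, 5′ to 3′ on the gene's strand, with capitals for AAAG and its reverse complement (CTTT) and for the CCAAT box that NF-Y binds and its reverse complement (ATTGG).
LEC1, chr1:7729650-7729899, minus strand: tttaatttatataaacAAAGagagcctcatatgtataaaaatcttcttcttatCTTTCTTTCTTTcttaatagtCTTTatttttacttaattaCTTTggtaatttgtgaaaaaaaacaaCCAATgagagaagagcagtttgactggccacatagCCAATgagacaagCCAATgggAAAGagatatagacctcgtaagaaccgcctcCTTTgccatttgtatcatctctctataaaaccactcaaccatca
NF-YB2, chr5:19308977-19309226, plus strand: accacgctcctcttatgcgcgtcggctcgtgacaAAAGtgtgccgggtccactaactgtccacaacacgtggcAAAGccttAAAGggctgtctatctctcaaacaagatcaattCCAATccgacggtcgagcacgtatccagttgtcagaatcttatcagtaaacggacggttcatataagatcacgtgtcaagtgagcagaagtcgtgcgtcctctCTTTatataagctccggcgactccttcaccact
The LEC1 window held 8 copies of AAAG on both strands, and 92.9% of 27443 Arabidopsis promoters of the same length held fewer. The NF-YB2 window held 4, which was the median over all promoters, and 98.0% of promoters held at least 1. The CCAAT box was present 3 times in the LEC1 window, at 131, 96 and 83 bases before the start, and once in that of NF-YB2. On either strand 46.0% of promoters held it. The L1L window held 3 copies of AAAG and 0 of CCAAT. Of the other genes, NF-YB3 and NF-YA9 had 6 copies of AAAG each, NF-YA1 5, NF-YC9 3, and NF-YA5, NF-YC3 and NF-YC4 2 each. Neither edgeR nor DESeq2 called any of these genes. LEC1, called by both tools, had the most copies among the genes listed. NF-YB2, called by DESeq2, had 4, fewer than the uncalled NF-YB3, NF-YA9 and NF-YA1. Whether copy number bears on the calls was not tested. The core of the RY motif that B3 factors bind, CATGCA, was absent on both strands from the LEC1, L1L and NF-YB2 windows and present in 8.43% of promoters. A match of letters is a description of the sequence, not a site.

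The NF-YA genes, whose products contact the DNA, had positive log2 fold changes, none of which passed the test. NF-YA9 had 672 and 801 counts in the wild type against 1111, 773 and 1126 in the mutant, or 41.4 and 39.3 CPM and 50.6, 41.9 and 58.5 CPM. It was the only one of the 10 genes with each dof4.1-3 library above both Col-0 libraries, though the closest values, 41.9 and 41.4 CPM, nearly touched. Its log2 fold change was 0.32 (SE 0.20, adjusted p = 0.476 by edgeR).

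NF-YA5 had 205 and 326 counts in the wild type against 324, 333 and 358 in the mutant, at 12.6 and 15.97 CPM against 14.8, 18.1 and 18.6 CPM. NF-YA1 had 317 and 385 counts in the wild type against 435, 316 and 453 in the mutant, at 19.6 and 18.9 CPM against 19.8, 17.1 and 23.5 CPM. In both genes the groups overlapped. Their log2 fold changes of 0.26 (SE 0.21) and 0.07 (SE 0.20) did not pass, and the sign of NF-YA1 turned to -0.05 without dof4.1-3 replicate 3. NF-YA5 shares exon bases with 2 genes on the opposite strand, of which AT1G54150 had 338 to 444 counts, so its own level is less certain than those of NF-YA1 and NF-YA9.

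The NF-YC genes, partners of NF-YB in the histone-fold pair, had negative log2 fold changes, and again none passed. NF-YC9 had 2722 and 3165 counts in the wild type against 3123, 2815 and 2489 in the mutant, at 168 and 155 CPM against 142, 153 and 129 CPM. The groups did not overlap, but 155 and 153 CPM lay side by side. The log2 fold change of NF-YC9 was -0.19 (SE 0.20, adjusted p = 0.665 by edgeR).

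NF-YC3 had 1260 and 1652 counts in the wild type against 1463, 1469 and 1193 in the mutant, at 77.7 and 80.9 CPM against 66.7, 79.7 and 62.0 CPM. Its groups overlapped through dof4.1-3 replicate 2, and its log2 fold change was -0.19 (SE 0.20). NF-YC3 shares exon bases with 2 genes on the opposite strand, of which AT1G54840 had 207 to 455 counts. NF-YC4 was the lowest of the 10, with 64 and 104 counts in the wild type against 81, 67 and 71 in the mutant, or 3.95 and 5.096 CPM against 3.69, 3.64 and 3.69 CPM. Its groups did not overlap, the nearest values being 3.95 and 3.69 CPM. The log2 fold change was -0.30 (SE 0.27, adjusted p = 0.617 by edgeR). Reads in the bases NF-YC4 shares with AT5G63480, itself at 46 to 72 counts, may be missing from the NF-YC4 counts as ambiguous.

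Of the 10 genes, then, edgeR called 1 lower, LEC1, and 0 higher, where over all tested genes 183 (0.963%) were lower and 23 (0.121%) higher. DESeq2 called 2 lower, LEC1 and NF-YB2, and 0 higher, against 3.04% lower and 1.27% higher of the genes it tested. At an unadjusted p under 0.05 by edgeR, 2 of the 10 were lower and 0 higher, with a background of 9.52% and 6.33%. Groups did not overlap in 5 of them, 4 lower (LEC1, NF-YB2, NF-YC4 and NF-YC9) and 1 higher (NF-YA9), where 18.3% and 16.3% of all tested genes had groups apart in those directions. The median log2 fold change was -0.19 over the 10 genes and 0.03 over all tested genes.

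Per kilobase of transcript, which allows levels of different genes to be compared, the order in Col-0 was L1L (410.1 CPM per kb), NF-YC9 (100.1), NF-YC3 (54.0), LEC1 (53.1), NF-YA9 (31.9), NF-YB2 (16.7), NF-YA1 (12.2), NF-YA5 (9.79), NF-YB3 (6.90) and NF-YC4 (3.465). NF-YC3 and LEC1 overlapped there, and no other neighbours did, over only 2 libraries. In dof4.1-3 the first 3 were the same, L1L (380.3), NF-YC9 (87.7) and NF-YC3 (47.3), followed by NF-YA9 (39.8), LEC1 (19.8), NF-YA1 (12.8), NF-YA5 (11.7), NF-YB2 (7.25), NF-YB3 (5.24) and NF-YC4 (2.81). LEC1 thus stood below NF-YA9 in each dof4.1-3 library and above it in each Col-0 library. The neighbours NF-YC3 and NF-YA9, NF-YA1 and NF-YA5, and NF-YB2 and NF-YB3 overlapped in the mutant.

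The levels were also summed by subunit class. The 3 NF-YA genes summed to 53.8 and 53.9 CPM per kb in the wild type against 62.7, 56.4 and 73.9 in the mutant, a log2 difference of 0.25 (exact two-sided permutation p = 0.2). The 4 NF-YB genes summed to 552 and 422 CPM per kb in the wild type against 434, 436 and 368 in the mutant, a log2 difference of -0.23 (exact permutation p = 0.4). The 3 NF-YC genes summed to 160.0 and 155 CPM per kb in the wild type against 136, 152 and 125 in the mutant, a log2 difference of -0.20 (exact permutation p = 0.2). The NF-YA and NF-YC sums did not overlap between genotypes and the NF-YB sum, which L1L fills, did. With 2 libraries against 3 none of these could pass 0.05.

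Across the rest of the family, 21 of the other 26 NF-Y genes were tested, and edgeR called 0 of them in either direction. At an unadjusted p under 0.05, 5 were lower and 0 higher, against 9.52% and 6.33% of all tested genes. DESeq2 called 1 lower, NF-YC6 (AT5G50480), and 0 higher, against 3.04% and 1.27%. NF-YC6 was named after its values were seen. It had 22 and 38 counts in the wild type against 9, 2 and 3 in the mutant, with a log2 fold change of -2.77 (SE 0.58) and an adjusted p of 0.0600 by edgeR. The 5 genes that were not tested had at most 4 counts in any library, and NF-YC2, a partner of LEC1 and L1L on storage protein promoters, had 0 counts in each library, which allows up to 3 counts per library. NF-YC2 overlaps a gene on the opposite strand.

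**Figure D4:**
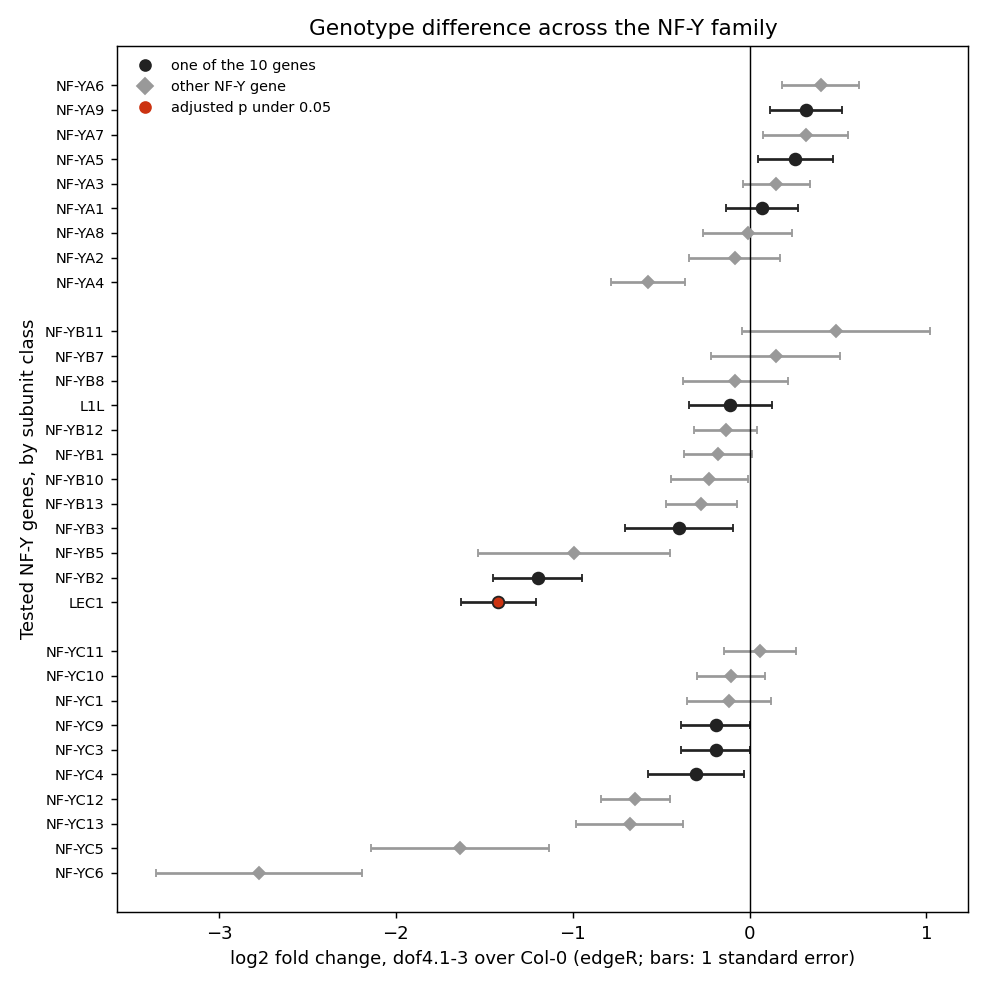
Log2 fold change, dof4.1-3 over Col-0, of the 31 tested NF-Y genes, ordered within NF-YA, NF-YB and NF-YC, with bars of 1 standard error by edgeR. LEC1 at -1.42 is the 1 gene with an adjusted p under 0.05, and NF-YC6 at -2.77 lies further out with a wider error.

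None of the most abundant of those other genes, per kilobase, passed the test. NF-YA3, NF-YA6 and NF-YA7 had log2 fold changes of 0.15 (SE 0.19), 0.40 (SE 0.22) and 0.32 (SE 0.24). This ranking took the mean over both genotypes. NF-YA4, named after its values were seen, stood above NF-YA7 in Col-0 (13.6 against 10.8 CPM per kb), and its log2 fold change was -0.57 (SE 0.21, adjusted p = 0.221 by edgeR), with each mutant library below both of wild type. NF-YB12, NF-YB13 and NF-YB1 had -0.14 (SE 0.18), -0.27 (SE 0.20) and -0.18 (SE 0.19). In the NF-YC class, NF-YC12 had 18.1 and 17.7 CPM in the wild type against 10.3, 12.7 and 11.4 CPM in the mutant, with a log2 fold change of -0.64 (SE 0.20, adjusted p = 0.150 by edgeR), while NF-YC11 and NF-YC10 had 0.06 (SE 0.20) and -0.10 (SE 0.19). Over whole classes the median log2 fold change was 0.15 for the 9 tested NF-YA genes, -0.20 for the 12 tested NF-YB genes and -0.25 for the 10 tested NF-YC genes. Of the tested NF-YC genes 9 were negative, and of the tested NF-YA genes 3 were.

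NF-Y complexes act with other factors, and 8 such partners were read. None was called by edgeR or DESeq2, and at an unadjusted p under 0.05 by edgeR 3 were lower and 1 was higher, where 9.52% and 6.33% of all tested genes were. bZIP67, which works with LEC1-type complexes on storage protein promoters, had 22.3 and 25.2 CPM in the wild type against 34.3, 57.2 and 36.3 CPM in the mutant, each mutant library above both of wild type, with a log2 fold change of 0.84 (SE 0.25, adjusted p = 0.147 by edgeR). LEC2, a B3-domain factor that acts alongside LEC1, had 65 and 113 counts in the wild type against 58, 47 and 54 in the mutant, with a log2 fold change of -0.84 (SE 0.29, adjusted p = 0.196 by edgeR). PIF4, a light-signalling factor, had -0.81 (SE 0.33). The median over the 8 partners was -0.17.

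Of 8 genes that LEC1 or L1L are known to act on, 7 had a positive log2 fold change. The median was 0.66, against 0.03 over all tested genes, with LEC1 itself at -1.42 and L1L at -0.11. Among the 8, edgeR called 0, with 4 higher at an unadjusted p under 0.05 (6.33% of all tested genes). DESeq2 called 4 higher and 0 lower (1.27% and 3.04% of the genes it tested). SUS2, a sucrose synthase, had 389 and 347 CPM in the wild type against 792, 913 and 761 CPM in the mutant, and FAD3, the desaturase that makes linolenic acid, had 578 and 409 CPM in the wild type against 963, 1371 and 1352 CPM in the mutant. For both genes each mutant library stood above both wild-type libraries. Their log2 fold changes were 1.16 (SE 0.24, adjusted p = 0.0547 by edgeR) and 1.32 (SE 0.29, adjusted p = 0.0677 by edgeR). CRC, the cruciferin whose promoter LEC1-type complexes and bZIP67 activate together, had 16390 and 9130 CPM in the wild type against 23850, 61990 and 52860 CPM in the mutant, with a log2 fold change of 1.86 (SE 0.52, adjusted p = 0.125 by edgeR). In DESeq2 these 3 and ABI3 were the 4 called. CRC is also 1 of the storage protein genes read below.

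Of 10 genes that repress LEC1 after embryogenesis or outside the seed, among them the VAL factors and Polycomb subunits, neither edgeR nor DESeq2 called any. VAL2 had 9.68 and 15.4 CPM in the wild type against 20.04, 15.1 and 21.3 CPM in the mutant, with a log2 fold change of 0.58 (SE 0.26, adjusted p = 0.312 by edgeR) and groups that overlapped. VAL1 and EMF2 had 0.66 (SE 0.34) and 0.36 (SE 0.23), and both also overlapped. At an unadjusted p under 0.05 by edgeR 1 of the 10, VAL2, was higher (6.33% of all tested genes), and the median was 0.29.

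Markers of the seed coat and fruit wall were read in the same libraries. All 11 tested seed coat markers had a negative log2 fold change, with a median of -0.58, and in 8 of them each dof4.1-3 library was below both of Col-0, as in 18.3% of all tested genes. They summed to 1606 and 1444 CPM in the wild type against 943, 959 and 1013 CPM in the mutant. Most of that sum was TT10, at 988 and 892 CPM in the wild type against 606, 545 and 625 CPM in the mutant. BAN, an enzyme of seed coat tannin synthesis, was the 1 called by edgeR, which called 0.963% of all tested genes lower. BAN had 41.4 and 44.8 CPM in the wild type against 14.3, 9.71 and 11.7 CPM in the mutant. Its log2 fold change was -1.85 (SE 0.21, adjusted p = 0.0105 by edgeR). PMEI6, MYB61 and TT10 had -1.54, -0.63 and -0.67 and did not pass in edgeR, while DESeq2 called them and BAN lower, 4 of the list against 3.04% of the genes it tested. TT12 had at most 6 counts in any library and MYB5 had 0 in each, and both overlap a gene on the opposite strand.

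The 5 silique wall markers were also all negative, with a median of -0.74, and summed to 53.4 and 61.0 CPM in the wild type against 32.2, 32.8 and 28.6 CPM in the mutant. SHP2, a fruit valve margin factor also active in ovules, was the 1 called, at -1.14 (SE 0.22, adjusted p = 0.0479 by edgeR). Over all tested genes edgeR called 0.963% lower. At an unadjusted p under 0.05 by edgeR 3 of the 5 markers were lower, against 9.52% of all tested genes. In 4 of the 5 each dof4.1-3 library was below both of Col-0, as in 18.3% of all tested genes. FUL, SHP1 and ALC had -0.91, -0.53 and -0.74, with at most 13 counts in any library for ALC.

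Markers of the embryo, where LEC1 is known to act, had mostly positive values. The list summed to 238 and 270 CPM in the wild type against 382, 309 and 407 CPM in the mutant, edgeR called 0 of 11 tested (1 lower and 2 higher at an unadjusted p under 0.05, against 9.52% and 6.33% of all tested genes), 8 of the 11 were positive, and the median was 0.16. DESeq2 called 1 higher, SCR, with a log2 fold change of 1.11 (SE 0.24, adjusted p = 0.0624 by edgeR). Most of the difference in the sum was SCR, at 38.3 and 53.5 CPM in the wild type against 93.2, 85.6 and 118 CPM in the mutant, and PDF2, at 95.6 and 109 CPM against 159, 126 and 169 CPM. Of the other 9 tested markers, 8 had groups that overlapped. PDF2 and STM had log2 fold changes of 0.56 and -0.85, and WUS had at most 4 counts in any library. Of the endosperm markers edgeR called 0 of 5 tested, with 2 lower at an unadjusted p under 0.05 (9.52% of all tested genes), and DESeq2 called 2 lower (3.04%), ZOU and ALE1, which act in endosperm breakdown and embryo cuticle formation. ZOU and ALE1 had log2 fold changes of -0.91 (SE 0.21) and -1.20 (SE 0.29) and MEA had 1.09 (SE 0.65). The endosperm sum, 6306 and 6723 CPM in the wild type against 6431, 6011 and 16590 CPM in the mutant, was nearly all EPR1 and overlapped. Whether the makeup of the seeds had a part in the lower LEC1 level was not tested.

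**Figure D5:**
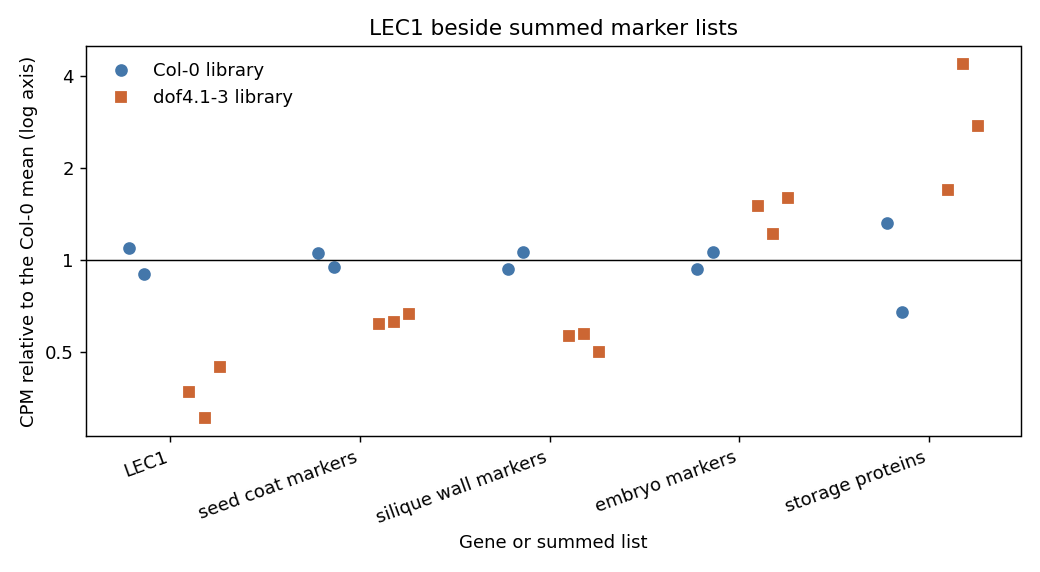
CPM of LEC1 and summed CPM of 4 gene lists in each library, relative to the mean of the Col-0 libraries, on a log axis. LEC1 (0.304 to 0.446 in dof4.1-3) lies lower than the seed coat (0.618 to 0.664) and silique wall sums (0.500 to 0.573). The seed coat sum is mostly TT10. Some genes of that list, among them BAN (-1.85) and PMEI6 (-1.54), had lower log2 fold changes than LEC1 (-1.42), and most did not. The embryo sum (1.22 to 1.60), whose difference is mostly SCR and PDF2, lies above 1, while the median log2 fold change of the embryo genes was 0.16.

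All 9 storage protein genes stood above both wild-type libraries in each mutant library, as did 16.3% of all tested genes, with a median log2 fold change of 1.59. None passed in edgeR, 9 were higher at an unadjusted p under 0.05 (6.33% of all tested genes), and DESeq2 called 7 higher (1.27% of the genes it tested). CRB, SESA1 and CRD had log2 fold changes of 1.95 (SE 0.47), 2.51 (SE 0.60) and 2.52 (SE 0.58).

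Over the 5 libraries, the profile of LEC1 was most like those of LSH5, AT3G47410, AT1G23200, FLA5, a fasciclin-like arabinogalactan protein gene, and TT10, a seed coat laccase gene. Pearson correlations of log2 CPM were 0.997 to 1.00, and 315 of 17407 genes whose mean reached 1 CPM exceeded 0.95. LSH5 had 63.3 and 54.3 CPM in the wild type against 30.3, 27.1 and 34.4 CPM in the mutant. The profile of L1L was most like those of AT4G27020, AT1G13340, ARPN, NIMIN-2 and AT3G60450, with correlations of 0.994 to 0.997, and 67 genes exceeded 0.95. With 5 points in 2 genotypes these are descriptions only.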

How the data were processed

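RNA from developing seeds was sequenced by the authors as paired-end libraries, 2 of Col-0 and 3 of dof4.1-3, grouped here by the genotype in the labels, which write the mutant without its allele number. Per the methods, reads were trimmed with cutadapt, inspected with FastQC, aligned to TAIR10 with HISAT2 and assigned to genes by unstranded htseq-count, and genotypes were tested with DESeq2. The sources used here give no tool versions. The deposited values are the authors' raw counts. Lines that name no gene (9 blank, 5 summaries, with 0.727% to 1.74% of reads without a feature and 3.10% to 3.92% ambiguous) were left out, and 0 columns of other samples were present.

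Genes were filtered with filterByExpr, scaled with TMM and tested with edgeR 4.0.16's quasi-likelihood test (robust, genotype only, 3 residual degrees of freedom) in R 4.3.3, with Benjamini-Hochberg adjustment over 19003 genes and a threshold of 0.05. Of these 18876 had a transcript length. Alternatives were DESeq2 1.42.0, limma-voom (limma 3.58.1), RLE and upper-quartile factors, scaling without the 50 most abundant genes, other filters, robust=FALSE, each library left out, the replicate number as a block, and a lowess trend (span 0.3) over transcript length removed. Sequences and positions came from RefSeq TAIR10.1, and figures from matplotlib 3.10.9. The edgeR, limma-voom and DESeq2 fits were checked on a simulated set of counts, and the other steps were not. In that set all of these fits made a larger share of false calls than the threshold allows, DESeq2 the largest. They also missed most changes of the smaller simulated size.

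The 10 genes, the other gene lists and the tests were chosen with earlier results of these data known. Named are the 10 genes, the 3 most abundant other NF-Y genes per class (ranked per kilobase, as decided once values were known), up to 4 called members and up to 3 others with the smallest p of each other list, and the 5 genes most correlated with LEC1 and with L1L. Proteins and microRNAs that target NF-YA genes are not analysed here.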

Additional observations from a re-analysis of the deposited data

How the results depend on the processing

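The direction of LEC1 was kept in all 16 settings tried, and its call in 12. Of the 10 genes, 2 were called lower with DESeq2 and with no filter on low counts, and 0 with the length trend removed. Of the other NF-Y genes 1 was called lower with DESeq2 and with no filter. Leaving out each library in turn gave 0 to 2 of the 10 genes lower, 0 to 1 of the other NF-Y genes lower, and log2 fold changes of LEC1 from -1.57 to -1.27 (adjusted p = 0.00672 to 0.325 by edgeR). Removing the length trend gave LEC1 -1.18, with an adjusted p of 0.0616, and turned L1L to 0.056. With a library left out, L1L ran from -0.30 to 0.11, positive without Col-0 replicate 1, and NF-YA1 from -0.053 to 0.18, negative without dof4.1-3 replicate 3. Without Col-0 replicate 1 or 2 the lone Col-0 library is assumed to vary like the others, and calls over all genes went from 183 lower and 23 higher to 2 and 1, or to 0 and 0. They went to 707 and 181 without dof4.1-3 replicate 2, to 338 and 162 without replicate 1, to 51 and 4 without replicate 3, to 596 and 249 with DESeq2, to 565 and 170 with no filter, and to 44 and 10 with the length trend removed.

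The sources used here do not say that replicate numbers pair these samples, and only 2 numbers are shared. Same-numbered libraries deviated from their group means with correlations of -0.25 and -0.29. Deviations of 2 Col-0 libraries mirror each other, so these correlations cannot decide whether the numbers pair the samples. With the replicate block, LEC1 stood at -1.57 on the log2 scale (adjusted p = 0.00854 by edgeR), 1 of the 10 genes was called lower, NF-YA1 turned to -0.059, and 175 genes were lower and 29 higher. With the replicate block and the length trend removed, LEC1 was at -1.35 (adjusted p = 0.154), L1L at 0.14 and NF-YA1 at -0.026, 0 of the 10 genes were called, and 2 genes were lower and 2 higher over all.

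NF-YC4, NF-YB3 and NF-YC6 rest on at most 129 counts in a library, where small changes would not be detectable, and 2 Col-0 libraries give a rough estimate of the spread.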
